A study of Rattus norvegicus with 20 samples.

Results

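The genes described here encode 10 ion channels with which sensory neurons turn heat, cold, irritants, pressure and acid into current. They were chosen by gene symbol, with earlier results of these data known. The list holds 5 channels of the TRP family (Trpv1, Trpv2, Trpa1, Trpm8 and Trpm3), both Piezo channels (Piezo1 and Piezo2) and 3 acid-sensing channels (Asic1, Asic2 and Asic3). These are 10 of the 39747 genes in the count table. Each symbol matched a single gene, and all 10 passed the filter on low counts in every fit, which asked for 10 or more counts in at least 90% of the libraries compared.

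RNA was sequenced from the dorsal root ganglia (DRG), which hold the cell bodies of sensory neurons together with glia, vessels and connective tissue, of female Sprague-Dawley rats labelled wild type. Rats were fed a soy oil diet (SOD, based on AIN-93G) or a fish oil-enriched diet (FOD, AIN-93G with its fat partly replaced by sources of n-3 fatty acids) for 4 weeks before surgery. Chronic constriction injury (CCI) placed loose chromic gut ligatures around the left sciatic nerve, and sham-operated controls (CT) had the same nerve exposed and left untied. Left ganglia gave 3 SOD-CCI libraries with 4 SOD-CT controls and 4 FOD-CCI libraries with 3 FOD-CT controls, and right ganglia gave 3 SOD-CCI contralateral and 3 FOD-CCI contralateral libraries, so that 20 libraries came from 14 rats and 6 rats gave both sides. No agent other than the diets was given by the labels. The contralateral ganglia came from injured animals and are not sham tissue, the labels name no spinal level for the ganglia, and a ganglion can also hold cell bodies whose axons do not run in the tied nerve. The labels mention 1 week of recovery and also 4 weeks of diet after surgery, as do the methods of the study, whereas its results place DRG collection 1 week after CCI. Total counts ran from 22547190 to 54437581 per library.

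TRP channels are cation channels of which Trpv1 answers to noxious heat, acid and capsaicin, Trpa1 to electrophilic irritants such as mustard oil, Trpm8 to cool temperatures and menthol, Trpm3 to heat and pregnenolone sulfate, and Trpv2, in vitro, to strong heat. Piezo channels open when the membrane is stretched, and Piezo2 is the main channel of light touch and proprioception in sensory neurons, while Piezo1 is best known from endothelium, red cells and other cells outside the nervous system. Acid-sensing channels are proton-gated sodium channels of the degenerin family, and Asic3 is the one most typical of sensory neurons. Most of these channels are made by subsets of DRG neurons, so that in whole ganglia, as in any bulk sample, fewer cells of a type and less RNA per cell cannot be told apart.

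A set of 4 libraries, defined by marker genes and not by these channels, stood apart, and results are given with and without them. In 3 fish oil libraries, each the replicate 1 of its group (FOD-CCI, its contralateral group and FOD-CT), 7 markers of spinal cord glia summed to 2144 to 3495 counts per 1000000 counts of a library (CPM), against 8.12 to 67.2 CPM in the other 17 libraries. In the same 3 libraries 5 markers of spinal inhibitory neurons summed to 594 to 676 CPM, against 0 to 5.38 CPM, and none of these markers was at 0. The fourth, SOD-CT replicate 1, carried 93345 CPM of 10 skeletal muscle markers, against 6.81 to 20796 CPM elsewhere. Muscle markers also moved with surgery, with a median of 2588 CPM in SOD-CT and 1666 CPM in FOD-CT against 16.3 CPM in SOD-CCI and 15.2 CPM in FOD-CCI. Atf3, a transcription factor induced in axotomized sensory neurons, went against its label in 1 left library. It measured 263 to 333 CPM in SOD-CCI and 202 to 501 CPM in 3 FOD-CCI libraries, but 3.27 CPM in the library labelled FOD-CCI replicate 1. In the library labelled FOD-CCI contralateral replicate 1 the sensory neuron genes Scn10a and Isl1 had no count, so this library lacked defining markers of a DRG. The 10 channel genes together summed to 184 to 406 CPM in the 3 libraries with spinal cord markers and 194 CPM in SOD-CT replicate 1, against 518 to 1082 CPM in the remaining 16 libraries. How far these other tissues shaped the results below was not tested beyond the values given without the 4 libraries.

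The gene starts of Trpv1, Trpm8 and Asic3 are shown because the levels of these 3 genes moved most closely together over the 20 libraries, and that of Trpv2 because its CPM were higher on the tied side in each rat. Pearson's r between the 3 genes was 0.98 to 0.99 over the 20 libraries but 0.35 to 0.49 over the 16, so their closeness rested on the libraries that stood apart. The windows run from 250 bases before to 50 bases after the RefSeq gene start in GRCr8, 5′ to 3′ along the gene, at chr10:58349686-58349985 (Trpv1, plus strand), chr9:96351433-96351732 (Trpm8, plus strand), chr4:11657318-11657617 (Asic3, minus strand) and chr10:47771973-47772272 (Trpv2, plus strand). Capitals mark TGTGGT, the core letters bound by RUNX factors, or its reverse complement.
Trpv1: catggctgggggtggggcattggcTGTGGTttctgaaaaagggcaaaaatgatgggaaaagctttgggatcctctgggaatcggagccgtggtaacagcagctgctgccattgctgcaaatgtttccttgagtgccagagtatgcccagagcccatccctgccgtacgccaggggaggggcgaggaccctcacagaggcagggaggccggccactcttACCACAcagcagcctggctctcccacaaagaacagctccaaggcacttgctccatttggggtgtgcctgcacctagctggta
Trpm8: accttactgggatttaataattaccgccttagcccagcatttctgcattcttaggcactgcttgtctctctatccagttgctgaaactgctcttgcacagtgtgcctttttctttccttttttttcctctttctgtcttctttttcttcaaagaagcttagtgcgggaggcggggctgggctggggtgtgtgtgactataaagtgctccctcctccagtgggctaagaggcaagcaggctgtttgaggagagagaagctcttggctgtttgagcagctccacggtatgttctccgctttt
Asic3: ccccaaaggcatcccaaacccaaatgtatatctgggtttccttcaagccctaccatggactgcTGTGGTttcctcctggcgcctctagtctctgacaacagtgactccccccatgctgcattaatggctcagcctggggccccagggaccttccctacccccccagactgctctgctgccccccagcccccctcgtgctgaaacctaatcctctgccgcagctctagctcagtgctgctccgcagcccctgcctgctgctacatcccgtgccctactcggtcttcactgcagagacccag
Trpv2: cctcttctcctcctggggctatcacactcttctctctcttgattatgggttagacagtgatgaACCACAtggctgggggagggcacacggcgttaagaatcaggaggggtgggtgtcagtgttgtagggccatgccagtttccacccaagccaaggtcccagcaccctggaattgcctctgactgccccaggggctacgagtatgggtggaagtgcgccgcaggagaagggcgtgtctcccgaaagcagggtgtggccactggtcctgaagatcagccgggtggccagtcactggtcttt
The letters stood 226 bases before the gene start of Trpv1, with a reverse match 32 bases before it, 187 bases before that of Asic3, and in reverse 187 bases before that of Trpv2, while the Trpm8 window had none. Windows were at hand for 8 of the 10 genes, some with more than 1, which made 10 windows. TGTGGT occurred on either strand in 4 of these 10 windows (of Asic3, Trpm3, Trpv1 and Trpv2), and in 17.3% of 33469 windows of the same length. The AP-1 letters TGANTCA, present in 7.33% of all windows, and the cyclic AMP response element TGACGTCA, present in 1.83%, occurred in none of the 10 windows. The motifs do not overlap one another in these windows, and a match describes letters only.

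Per length, Asic3 was the highest of the 10 channel genes and Piezo1 the lowest. The deposited FPKM are fragments scaled to gene length and to a library size, here 0.628 to 1.13 times the total counts of a library. On this scale the medians over the 16 libraries were 85.1 for Asic3, 39.4 for Asic1, 31.3 for Trpv1, 26.1 for Trpv2, 17.5 for Piezo2, 15.5 for Trpa1, 10.3 for Trpm8, 4.66 for Asic2, 4.00 for Trpm3 and 1.52 for Piezo1. Asic3 ranged from 53.3 to 120 FPKM and exceeded Asic1 in 16 of 16 libraries. Piezo1 ranged from 0.338 to 2.92 FPKM and lay under Trpm3 in 15 of 16. Several neighbours in this order were not separated. Piezo2 was above Trpa1 in only 7 of 16 libraries, Asic2 above Trpm3 in 10, Trpv1 above Trpv2 in 12, Trpv2 above Piezo2 in 13 and Asic1 above Trpv1 in 14. Trpv1, Trpv2 and Trpa1 stood in the middle of the order, and the cold channel Trpm8 lay under Trpa1 in 16 of 16 libraries.

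**Figure D1:**
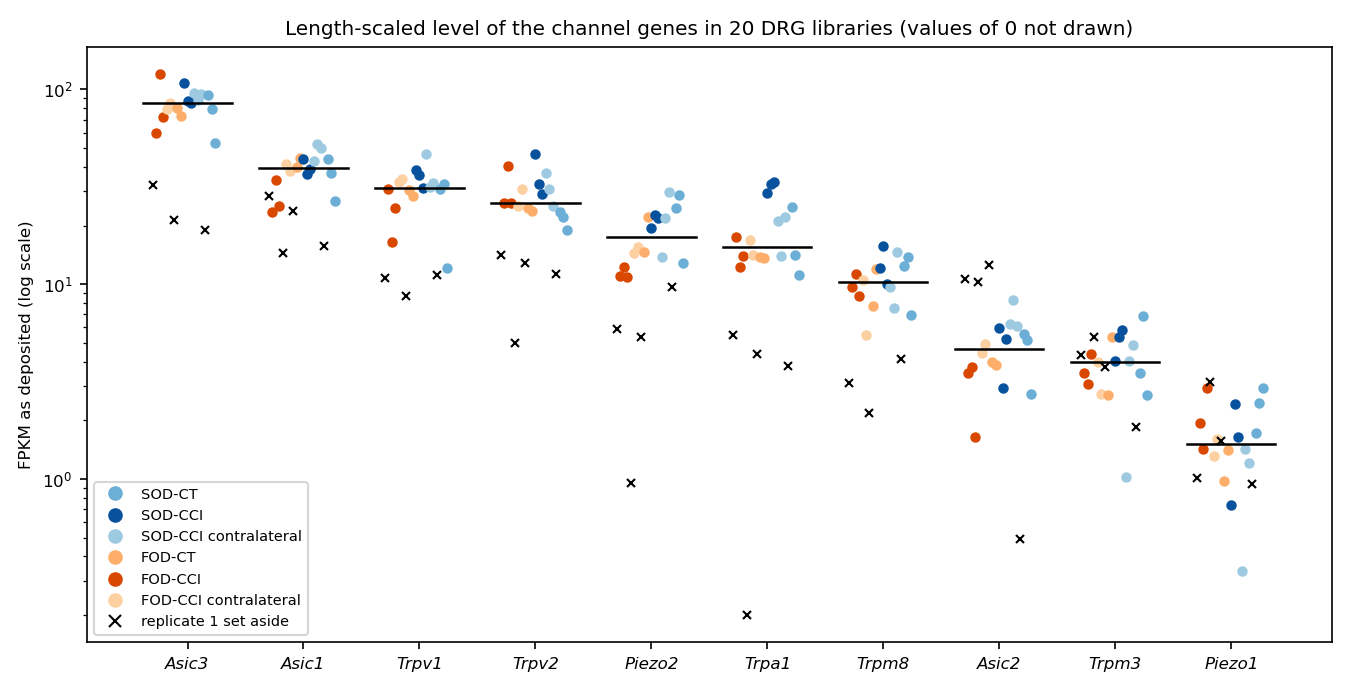
Levels of the 10 channel genes per transcript length, as the authors' FPKM on a log axis; points are libraries coloured by group, crosses the 4 libraries that stand apart, and bars the median of the other 16, while values of 0 are not drawn. Asic3 stands at a median of 85.1 FPKM and Piezo1 at 1.52 FPKM, and the ranges of neighbours such as Piezo2 and Trpa1 overlap.

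Trpa1, the irritant receptor, was higher in every SOD-CCI library than in any SOD-CT library. Trpa1 measured 101, 121 and 121 CPM in SOD-CCI against 8.03, 89.2, 51.6 and 36.7 CPM in SOD-CT, where the lowest value belongs to the library with muscle markers. Across the other groups Trpa1 measured 70.4, 48.3 and 78.7 CPM in SOD-CCI contralateral and 16.6, 45 and 48.6 CPM in FOD-CT. It measured 19, 58.6, 42 and 49.1 CPM in FOD-CCI and 0.710, 58.2 and 47.4 CPM in FOD-CCI contralateral, the first of each list being a library with spinal cord markers. No FOD library reached the lowest SOD-CCI value.

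Trpv2 was likewise above the sham range in SOD-CCI, by a smaller margin. It measured 134, 100.5 and 87.9 CPM in SOD-CCI against 20.0, 70.1, 67.0 and 51.9 CPM in SOD-CT. FOD-CCI gave 40.6, 72.5, 115 and 76.3 CPM and FOD-CT 40.7, 66.6 and 70.2 CPM, so that without replicate 1 of each the FOD groups no longer overlapped. The right ganglia gave 103, 88.6 and 74.2 CPM of Trpv2 in SOD-CCI contralateral and 14.7, 71.7 and 85.8 CPM in FOD-CCI contralateral.

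Trpv1, the capsaicin and heat receptor, measured 113, 114 and 95.2 CPM in SOD-CCI, which overlap the 19.9, 93.9, 101 and 33.7 CPM of SOD-CT. In FOD-CCI it measured 31.6, 86.2, 47.4 and 73.1 CPM, all under the lowest SOD-CCI library. FOD-CT gave 28.0, 83.8 and 85.1 CPM and SOD-CCI contralateral 132, 91.5 and 99.1 CPM. FOD-CCI contralateral gave 97.6 and 98.1 CPM in 2 libraries and no Trpv1 count in replicate 1, a library in which 0 counts allow up to 0.133 CPM by counting error alone. Trpm8 and Asic3 had no count there either. Trpm8, the menthol and cool receptor, overlapped in each of the left comparisons, with 51.8, 72.0 and 44.9 CPM in SOD-CCI, a sham range on that diet of 10.8 to 62.1 CPM, 13.4, 39.8, 47.5 and 38.1 CPM in FOD-CCI and 10.2, 31.1 and 53 CPM in FOD-CT. Trpm3, which responds to heat and to pregnenolone sulfate, measured 6.82 to 50.1 CPM over the 20 libraries, and the libraries with spinal cord markers, at 28.5, 29.9 and 38.2 CPM, lay inside the range of the others.

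Piezo2, the touch channel, separated the injured groups by diet. It measured 216, 270.0 and 254 CPM in SOD-CCI but 65.2, 118, 134 and 123 CPM in FOD-CCI. Its sham values spanned 65.5, 285, 334 and 136 CPM in SOD-CT and 65.3, 153 and 253 CPM in FOD-CT, and enclosed the SOD-CCI values. In the right ganglia Piezo2 measured 147, 241 and 341 CPM in SOD-CCI contralateral. FOD-CCI contralateral gave 10.8, 159 and 167 CPM of Piezo2, the first in a library with spinal cord markers. Piezo1 stayed between 2.69 and 26.4 CPM in every library, with its highest value in FOD-CCI contralateral replicate 1, a library with spinal cord markers, and with all libraries no left group stood clear of another.

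Asic1 measured 169.9, 152 and 157 CPM in SOD-CCI and 109, 87.3, 131 and 99.4 CPM in FOD-CCI, again without overlap. In sham ganglia Asic1 spanned 37.0, 177, 152 and 98.4 CPM (SOD-CT) and 101, 146 and 177 CPM (FOD-CT). Asic3, the proton sensor most typical of DRG neurons, overlapped between the injured groups, at 178, 154 and 147 CPM in SOD-CCI and 53.1, 94.5, 195 and 120.2 CPM in FOD-CCI. Asic2 was at 1.01 to 46.4 CPM, and its 3 highest values, 46.4, 35.5 and 35.3 CPM, belonged to the 3 libraries with spinal cord markers.

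**Figure D2:**
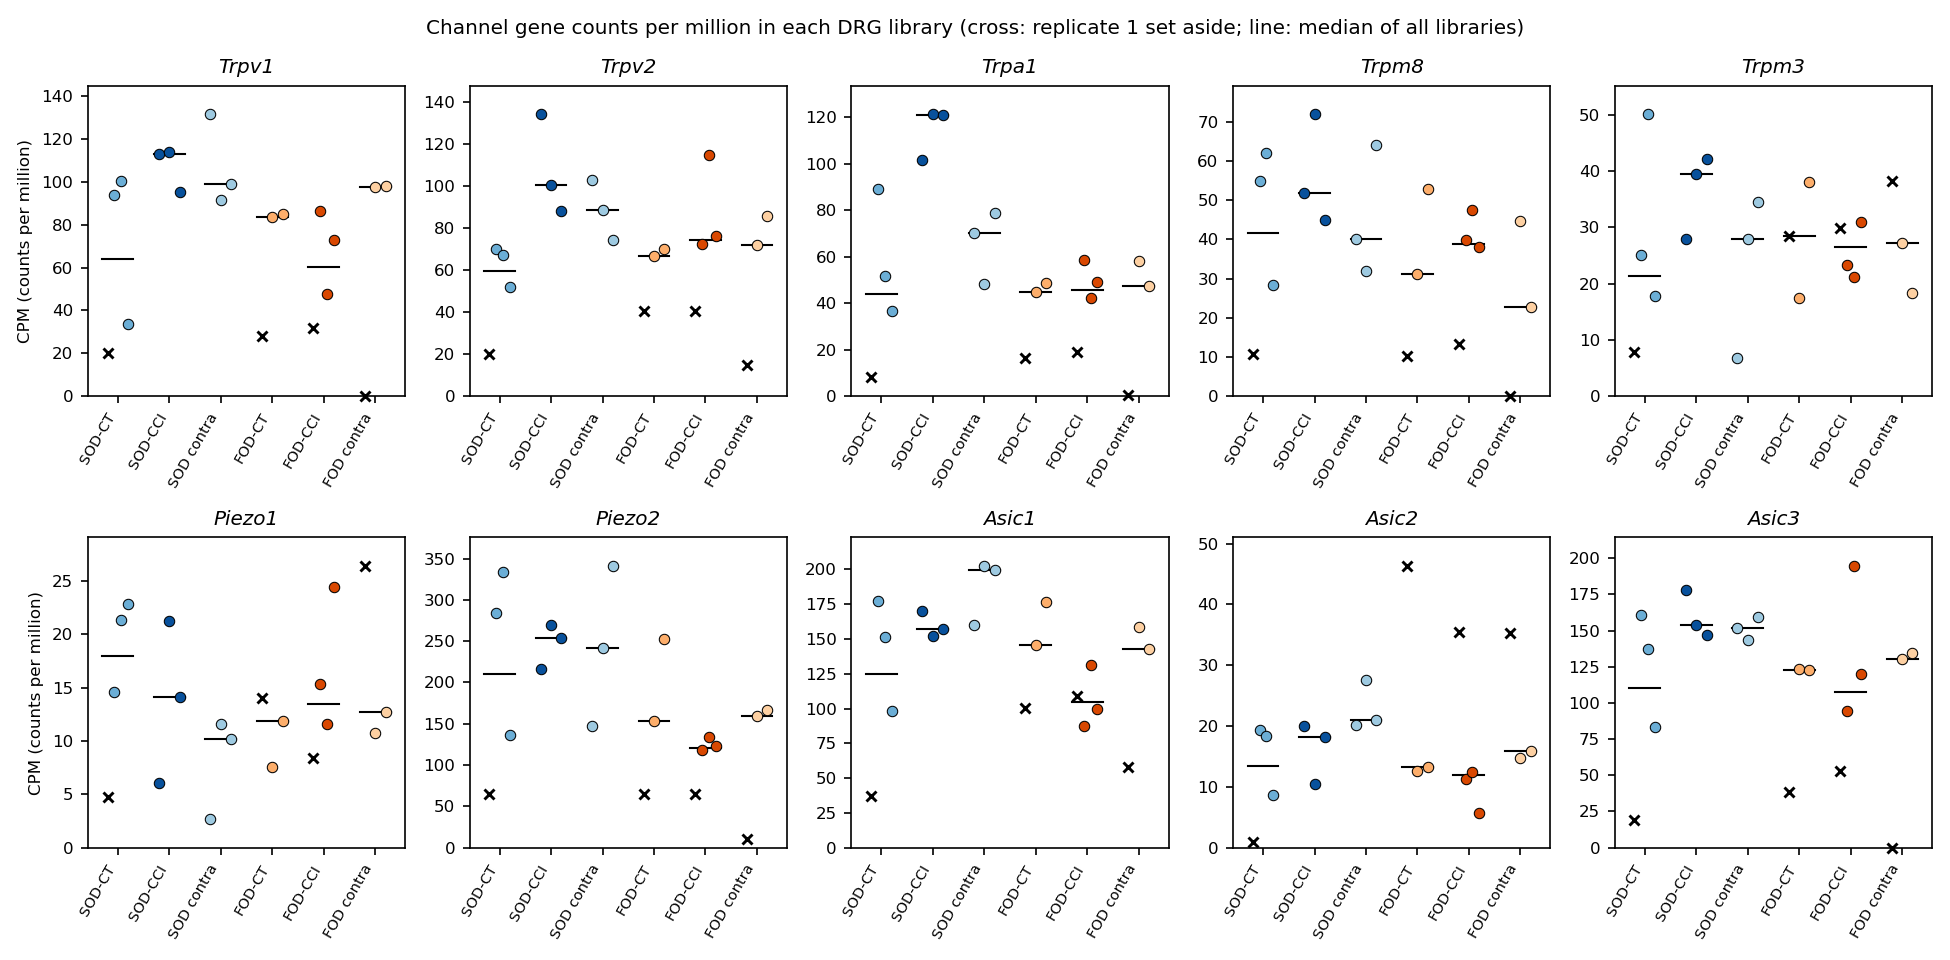
CPM of each channel gene in the 20 libraries by group, 1 panel per gene with its own axis from 0; points are libraries, crosses the 4 libraries that stand apart and bars the group median over all libraries. Trpa1 in SOD-CCI (101 to 121 CPM) lies above all other groups, and Piezo2 in FOD-CCI (65.2 to 134 CPM) lies under SOD-CCI (216 to 270.0 CPM).

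The first comparison asked how CCI changed the channels on the soy oil diet. Trpa1 averaged 115 ± 11.4 CPM (SD, n = 3) after CCI and 46.4 ± 33.8 CPM (n = 4) in sham ganglia, and Trpv2 averaged 107 ± 23.9 and 52.2 ± 22.9 CPM. By edgeR's quasi-likelihood test, with Benjamini-Hochberg adjustment over 14484 genes, the log2 fold change was 1.25 ± 0.53 (SE) for Trpa1 (adjusted p = 0.332) and 0.95 ± 0.35 for Trpv2 (adjusted p = 0.299), and neither passed the call of an adjusted p of at most 0.1 with a fold of at least 1.2. None of the 10 was called, and 0.0% of all genes were called. DESeq2, which called 4.1% of genes, called 0 of the 10. At an unadjusted p under 0.05 edgeR listed 2 of the 10, Trpa1 and Trpv2, both higher, against 13.8% of all genes in either direction and 5.05% higher. The same 2 had non-overlapping CPM, with SOD-CCI higher, against 11.8% of all genes. The other fitted values were 0.72 for Trpv1, 0.62 for Asic3, 0.46 for Trpm8 and for Trpm3, 0.44 for Asic2, 0.38 for Asic1, 0.19 for Piezo2 and -0.31 for Piezo1, each with an SE of 0.31 to 0.73. The median of the 10 was 0.46, beside -0.01 over all genes.

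Without the 4 libraries the SOD-CT mean of Trpa1 was 59.2 ± 27.0 CPM (n = 3), and the log2 fold changes were 0.93 ± 0.26 for Trpa1 (edgeR adjusted p = 0.156) and 0.75 ± 0.22 for Trpv2 (adjusted p = 0.183), still without a call, while 1.32% of all genes were called. DESeq2 on these libraries called both, with adjusted p = 0.0294 for Trpa1 and 0.0538 for Trpv2, as it did 5.36% of all genes, and with scaling to pan-neuronal markers edgeR called Trpv2 (1.59% of all genes). Over the 24 fits of this comparison the adjusted p of edgeR or DESeq2 ran from 0.0294 to 0.647 for Trpa1 and from 0.0538 to 0.647 for Trpv2. Macrophage markers moved along with these genes, with sums of 164 to 246 CPM in SOD-CCI against 32.2 to 164 CPM in SOD-CT, and their part in the result was not tested.

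On the fish oil diet the Trpa1 ranges of injured and sham ganglia overlapped. Trpa1 averaged 42.2 ± 16.9 CPM (n = 4) in FOD-CCI and 36.7 ± 17.5 CPM (n = 3) in FOD-CT. The log2 fold change was 0.21 ± 0.54 for Trpa1 and 0.39 ± 0.36 for Trpv2, and it was -0.49 ± 0.44 for Piezo2, -0.38 ± 0.31 for Asic1 and 0.48 ± 0.48 for Piezo1, all with an edgeR adjusted p of 1.00. None of the 10 was called by edgeR, which called 0.0% of all genes, nor by DESeq2 (0.145%), and 0 of the 10 had an unadjusted edgeR p under 0.05 (4.52% of all genes). No member's CPM ranges were apart (2.05% of all genes higher and 2.54% lower in FOD-CCI). Without replicate 1 of both groups Trpv2 lay higher in FOD-CCI without overlap (14.9% of all genes) and Piezo2, Asic1 and Asic2 lower (13.9%). The edgeR log2 fold changes were then 0.34 ± 0.25 for Trpv2, 0.08 for Trpa1, -0.70 ± 0.28 for Piezo2 (adjusted p = 0.266) and -0.62 ± 0.22 for Asic1 (adjusted p = 0.209), again with no call among the 10 and 3.47% of all genes called. With scaling to pan-neuronal markers as well, edgeR called 1 of the 10, Trpv2, at 0.72 (adjusted p = 0.0667), with 8.85% of all genes.

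Averaged over the diets, Trpv2 was the channel with the lowest edgeR p. Its log2 fold change after CCI was 0.67 ± 0.25 (edgeR adjusted p = 0.331) and that of Trpa1 was 0.73 ± 0.38 (adjusted p = 0.492). No member was called by edgeR (0.0% of all genes) or by DESeq2 (3.29%), and 1 of 10, Trpv2, had an unadjusted p under 0.05 (11.5% of all genes). Without the 4 libraries Trpv2 was called higher after CCI, with a log2 fold change of 0.55 ± 0.17 and an edgeR adjusted p = 0.0883, where 7.77% of all genes were called, and Trpa1 stood at 0.50 ± 0.19 (adjusted p = 0.179). On these libraries Trpv2 was also called by DESeq2 (12.2% of all genes), and with scaling to pan-neuronal markers edgeR called both genes (12.2%). Over the 23 fits the adjusted p of edgeR or DESeq2 ran from 0.00459 to 0.616 for Trpv2 and from 0.0418 to 0.687 for Trpa1.

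Whether the diets differed in their response to injury was tested as the interaction of diet and surgery in edgeR. Its log2 value was -1.04 ± 0.75 for Trpa1, -0.76 ± 0.45 for Asic1, -0.68 ± 0.63 for Piezo2 and 0.78 ± 0.67 for Piezo1, each with adjusted p = 0.894. None of the 10 was called (0.0% of all genes), none had an unadjusted p under 0.05 (5.01%), and DESeq2 called none (0.29%). The value was below 0 for 9 of the 10, as for 48.6% of all genes. Without the 4 libraries the values were -0.85 ± 0.38 for Trpa1 (adjusted p = 0.723), -0.77 ± 0.30 for Asic1 (adjusted p = 0.721) and 1.37 ± 0.61 for Piezo1 (adjusted p = 0.726). These 3 had an unadjusted p under 0.05 (6.86% of all genes) and none was called (0.0%), so that a difference between the diets in the response of any channel was not shown.

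**Figure D3:**
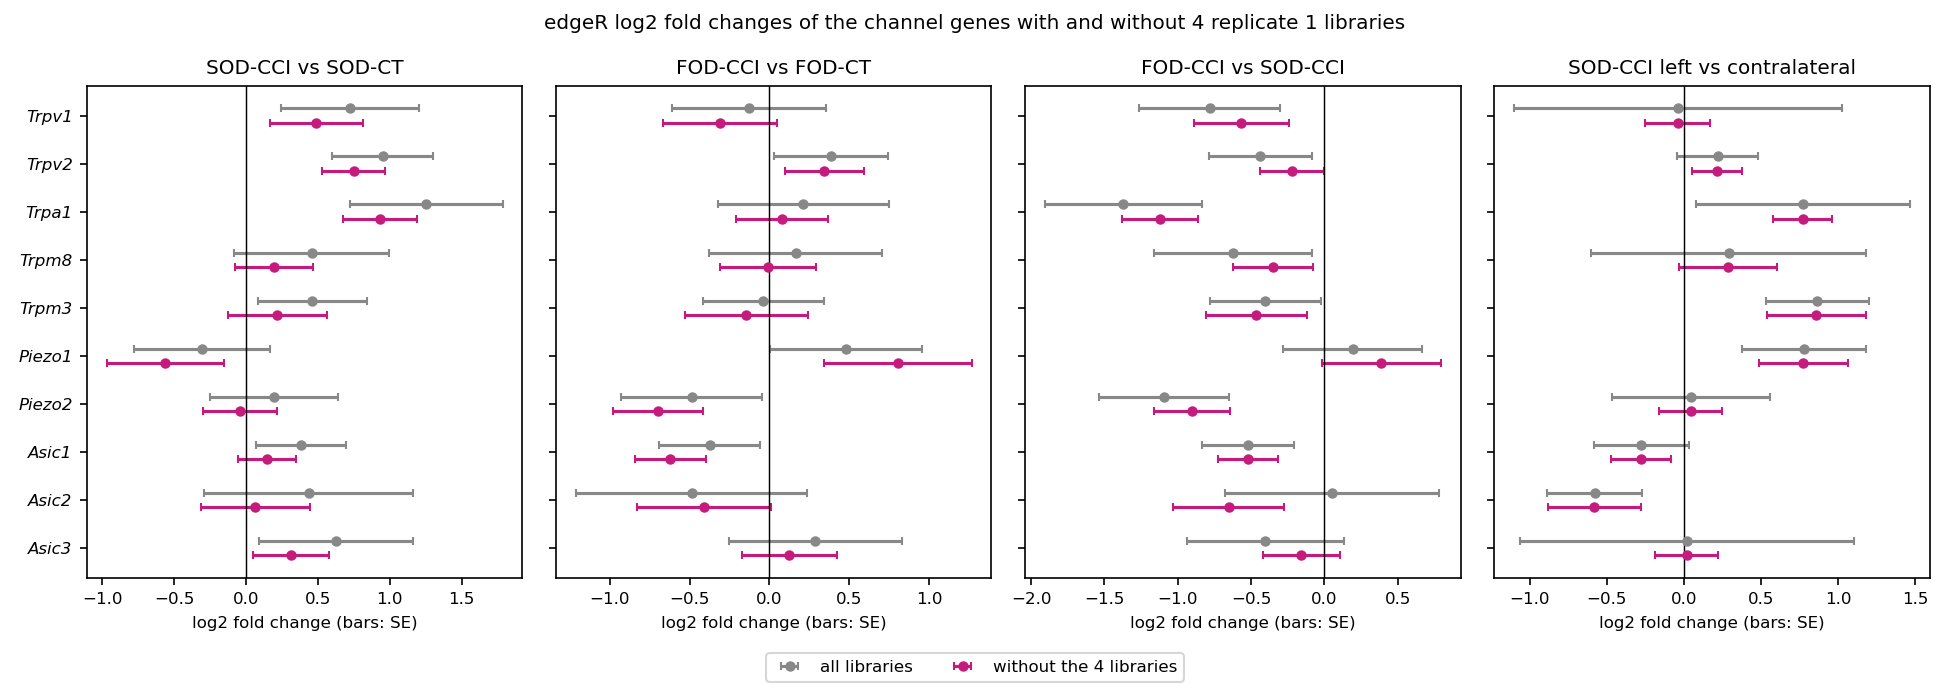
Log2 fold changes of the 10 channel genes from edgeR for 3 comparisons of left ganglia and for the left against the right side in SOD-CCI, with all libraries and without the 4 that stand apart; points are estimates, whiskers 1 standard error and the line marks 0. Trpa1 lies at 1.25 for SOD-CCI against SOD-CT and at -1.37 for FOD-CCI against SOD-CCI.

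The comparison of FOD-CCI with SOD-CCI asked whether diet altered the channels in injured ganglia. Trpa1 and Piezo2 were lower in FOD-CCI, at 42.2 ± 16.9 against 115 ± 11.4 CPM and at 110 ± 30.8 against 247 ± 27.6 CPM (n = 4 and 3), but not beyond the genome-wide threshold. The edgeR log2 fold change was -1.37 ± 0.53 for Trpa1 and -1.10 ± 0.44 for Piezo2, each with adjusted p = 0.859. None of the 10 was called by edgeR (0.0% of all genes) or by DESeq2 (0.0138%). At an unadjusted p under 0.05 edgeR listed 2 of the 10, these same genes, both lower in FOD-CCI, against 5.4% of all genes in either direction and 1.53% lower. The CPM ranges were apart for 4 of the 10, with Trpv1, Trpa1, Piezo2 and Asic1 lower in FOD-CCI, against 9.28% of all genes. The deposited FPKM separated the same 4.

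The remaining log2 fold changes between the injured groups were -0.78 for Trpv1, -0.62 for Trpm8, -0.52 for Asic1, -0.44 for Trpv2, -0.40 for Trpm3 and for Asic3, 0.05 for Asic2 and 0.19 for Piezo1, each with an SE of 0.31 to 0.73. Lower values in FOD-CCI were thus fitted for 8 of 10, beside 45.7% of all genes, with a median of -0.48 for the 10 and 0.04 for all genes. This comparison and that of SOD-CCI with SOD-CT share the 3 SOD-CCI libraries, so their Trpa1 values are not independent. FOD-CCI replicate 1, with its spinal cord markers and low Atf3, gave the lowest FOD-CCI value for Trpv1, Trpv2, Trpa1, Trpm8, Piezo1, Piezo2 and Asic3.

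Without that library the groups of the 3 FOD-CCI and 3 SOD-CCI libraries still did not overlap for the same 4 genes (14.8% of all genes lower). Trpa1 averaged 49.9 ± 8.29 CPM and Piezo2 125 ± 8.37 CPM in FOD-CCI. The edgeR log2 fold changes without the 4 libraries were -1.12 ± 0.26 for Trpa1 (adjusted p = 0.18), -0.90 ± 0.26 for Piezo2 (adjusted p = 0.242) and -0.52 ± 0.20 for Asic1 (adjusted p = 0.352). Of the 10, 3 had an unadjusted p under 0.05 (12.3% of all genes) and none was called (0.0% of all genes). DESeq2 on these libraries called Trpa1 (adjusted p = 0.00612) and Piezo2 (adjusted p = 0.0364), among 3.58% of all genes. Over the 24 fits the adjusted p of edgeR or DESeq2 ran from 0.00612 to 1.00 for Trpa1 and from 0.0364 to 1.00 for Piezo2.

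In sham-operated ganglia no channel separated the diets. None of the 10 was called by edgeR or DESeq2 (0.0% of all genes each) and none had an unadjusted edgeR p under 0.05 (3.39%), nor did CPM ranges part for any of them (2.22% of all genes higher and 0.787% lower). Piezo1 had a log2 fold change of -0.59 ± 0.48 in FOD-CT against SOD-CT (edgeR adjusted p = 0.965). Without the 4 libraries it lay lower in FOD-CT without overlap (9.34% of all genes), at -0.98 ± 0.47, again with no call among the 10 by edgeR (0.0% of all genes).

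Scaling to neurons asked whether the channels moved relative to the neuronal RNA of each library. Counts were divided by the summed counts of 14 pan-neuronal markers, which held 0.464% to 3.18% of a library's counts. Single markers could differ with surgery, as Prph measured 3214 to 4066 CPM in SOD-CCI and 915 to 2898 CPM in SOD-CT. The marker sums of these groups overlapped, at 23981 to 28112 and 8946.5 to 30220 CPM. How such markers shaped the scaled values was not tested. These sums did not follow sensory neuron genes in the libraries with spinal cord markers. FOD-CCI replicate 1 had 24081 CPM of pan-neuronal markers, inside the 19983 to 31840.5 CPM of the 16 libraries. Its Scn10a (69.2 CPM) and Isl1 (13.1 CPM) lay under their ranges there, 123 to 385 and 17.7 to 42.3 CPM. FOD-CCI contralateral replicate 1, without a Scn10a or Isl1 count, still had 4643 CPM. The share of spinal cord neurons in these sums was not tested. Per 1000 pan-neuronal counts, Trpa1 gave 3.61, 4.89 and 5.04 in SOD-CCI and 0.897, 2.95, 2.06 and 1.57 in SOD-CT. Trpv2 gave 4.77, 4.05 and 3.67 in SOD-CCI, against 2.23, 2.32, 2.67 and 2.22 in SOD-CT. The 4 sham values of Trpv2 lay close together on this scale, that of the library with muscle markers included. SOD-CCI lay above SOD-CT without overlap for Trpv2, Trpa1 and Asic3, 3 of the 10, on this scale, where 6.46% of all genes did. Piezo2 gave 7.70, 10.9 and 10.6 in SOD-CCI and 2.71, 5.91, 4.91 and 5.82 in FOD-CCI, and Asic1 gave 6.05, 6.12 and 6.56 against 4.54, 4.37, 4.78 and 4.71. FOD-CCI lay under SOD-CCI for 3 of the 10, Trpa1, Piezo2 and Asic1 (3.45% of all genes), whereas Trpv1 now overlapped. The same 3 genes lay lower without the 4 libraries. On the fish oil diet only Asic1 parted injured from sham ganglia on this scale with all libraries, lower in FOD-CCI. Without the 4 libraries, which left 2 in FOD-CT, Trpv2, Piezo1 and Asic3 lay higher in FOD-CCI without overlap and Asic1 lower. For FOD-CCI against FOD-CT the shares of all genes on this scale are not given.

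**Figure D4:**
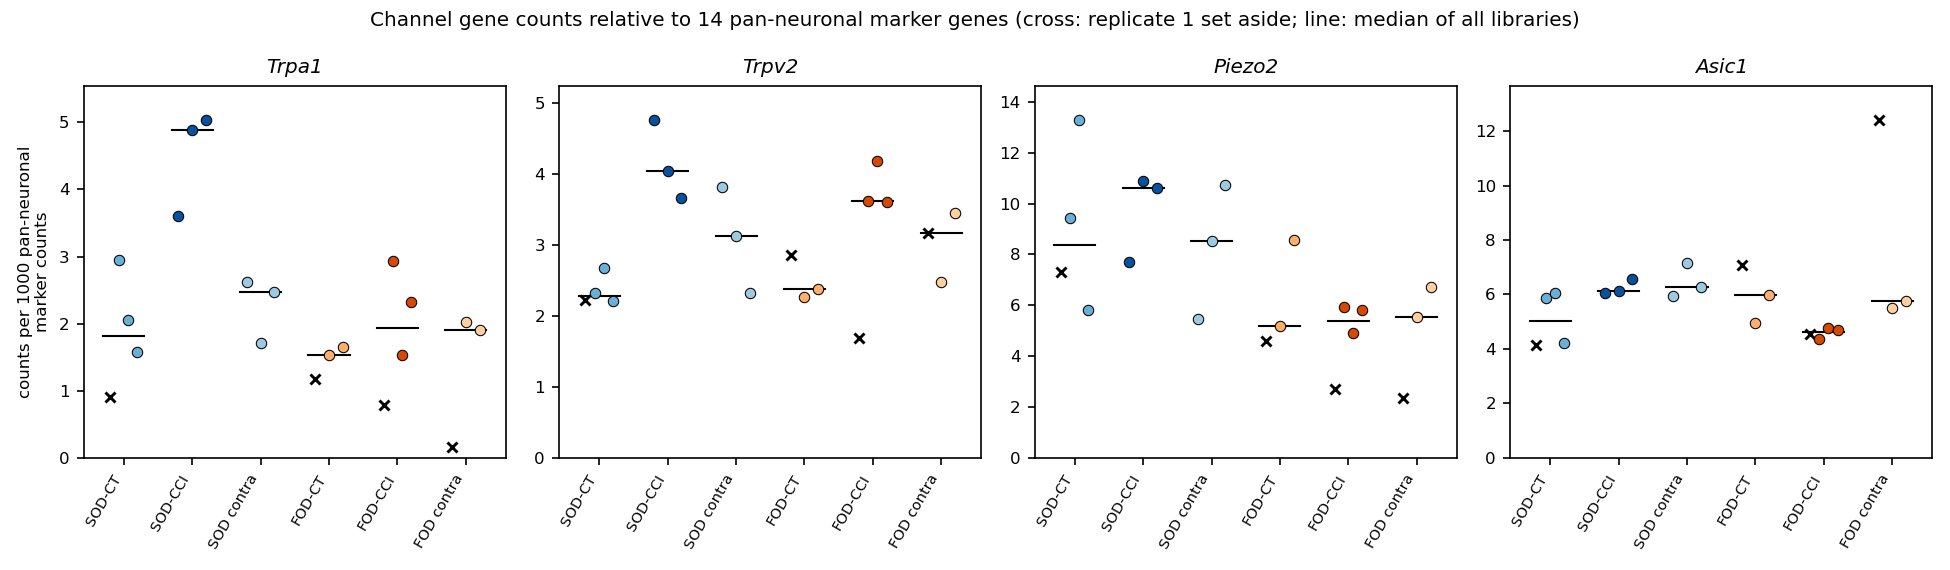
Trpa1, Trpv2, Piezo2 and Asic1 as counts per 1000 pan-neuronal marker counts in each library by group, axes from 0; points are libraries, crosses the 4 that stand apart and bars the group median over all libraries. Trpv2 in SOD-CT holds between 2.22 and 2.67 and in SOD-CCI between 3.67 and 4.77.

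The right ganglion of the same rat gave a control for Trpa1 and Trpv2 that carries the same diet and handling. Trpa1 was higher on the left in each of the 3 SOD-CCI rats, at 101 against 70.4 CPM, 121 against 48.3 CPM and 121 against 78.7 CPM, which are ratios of 1.44, 2.51 and 1.53. In FOD-CCI the left and right values were 58.6 and 58.2 CPM in rat 2 and 42 and 47.4 CPM in rat 3. The third FOD pair, replicate 1, gave 19 and 0.710 CPM in the libraries with spinal cord markers.

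Among SOD-CCI rats the left side was higher in every rat for 4 of the 10 genes, Trpv2, Trpa1, Trpm3 and Piezo1 (25% of all genes), and lower in every rat for 1, Asic2 (16%). Fitted by edgeR with rat as a block, the left against right log2 values were 0.77 ± 0.69 for Trpa1 (adjusted p = 0.845), 0.87 ± 0.33 for Trpm3 (adjusted p = 0.504), 0.78 ± 0.40 for Piezo1 (adjusted p = 0.662), 0.22 ± 0.26 for Trpv2 (adjusted p = 0.889), -0.28 ± 0.31 for Asic1 and -0.58 ± 0.31 for Asic2 (adjusted p = 0.676). None of the 10 was called (0.131% of all genes), DESeq2 called none (3.24%), and 1 of 10, Trpm3, had an unadjusted edgeR p under 0.05 (8.48%). Without the FOD-CCI replicate 1 pair, which shares its estimate of spread with these rats, Trpa1 was called higher on the left, at 0.77 ± 0.19 with an edgeR adjusted p = 0.0904, where 3.14% of all genes were called, and DESeq2 called it too (7.52%). Its adjusted p over the 15 fits of edgeR or DESeq2 ran from 0.0134 to 1.00.

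By CPM, Trpv2 was the member that was higher on the left in 6 of 6 rats, as were 5.16% of all genes. In FOD-CCI rat 2 its margin was slight, at 72.5 against 71.7 CPM, a ratio of 1.01. Per pan-neuronal count it was higher in 5 of these rats and lower in FOD-CCI replicate 1, by -0.91 on the log2 scale. Both libraries of that pair carry spinal cord markers, and their pan-neuronal sums did not follow sensory neuron genes. With neuronal scaling the edgeR value of Trpv2 in FOD-CCI, which includes that pair, turned to -0.0208. By CPM, Trpv2 was in FOD-CCI the only member higher in all 3 rats (11.4% of all genes), and none was lower in all 3 (11.7%). The mean log2 difference of its CPM over the 6 rats was 0.45 with an SD of 0.52. An exact permutation test over the signs of the 6 differences gave p = 0.03125, two-sided, the smallest that 6 rats allow, unadjusted for the 10 genes tested this way. Leaving out FOD-CCI replicate 1 brought the mean to 0.25 (SD 0.16, n = 5, exact permutation p = 0.0625, the smallest that 5 rats allow). The edgeR value in FOD-CCI was 0.64 ± 0.27 for Trpv2 (adjusted p = 0.706) and 1.08 ± 0.81 for Trpa1 (adjusted p = 0.815), with none of the 10 called by edgeR (0.0137% of all genes) or DESeq2 (1.81%) and 1, Trpv2, at an unadjusted p under 0.05 (6.96%). Without replicate 1 these values were 0.21 ± 0.20 for Trpv2 (adjusted p = 0.71) and -0.09 ± 0.23 for Trpa1 (adjusted p = 0.912), with none of the 10 called (0.914% of all genes). In the remaining 2 FOD-CCI rats 4 of the 10, Trpv1, Piezo2, Asic1 and Asic2, were lower on the left in both (26.3% of all genes). Asic2, the other gene with a constant direction once that rat was left out, was lower on the left in 5 of 5 rats (8.68% of all genes), by a mean log2 difference of -0.47 (SD 0.54, exact permutation p = 0.0625).

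**Figure D5:**
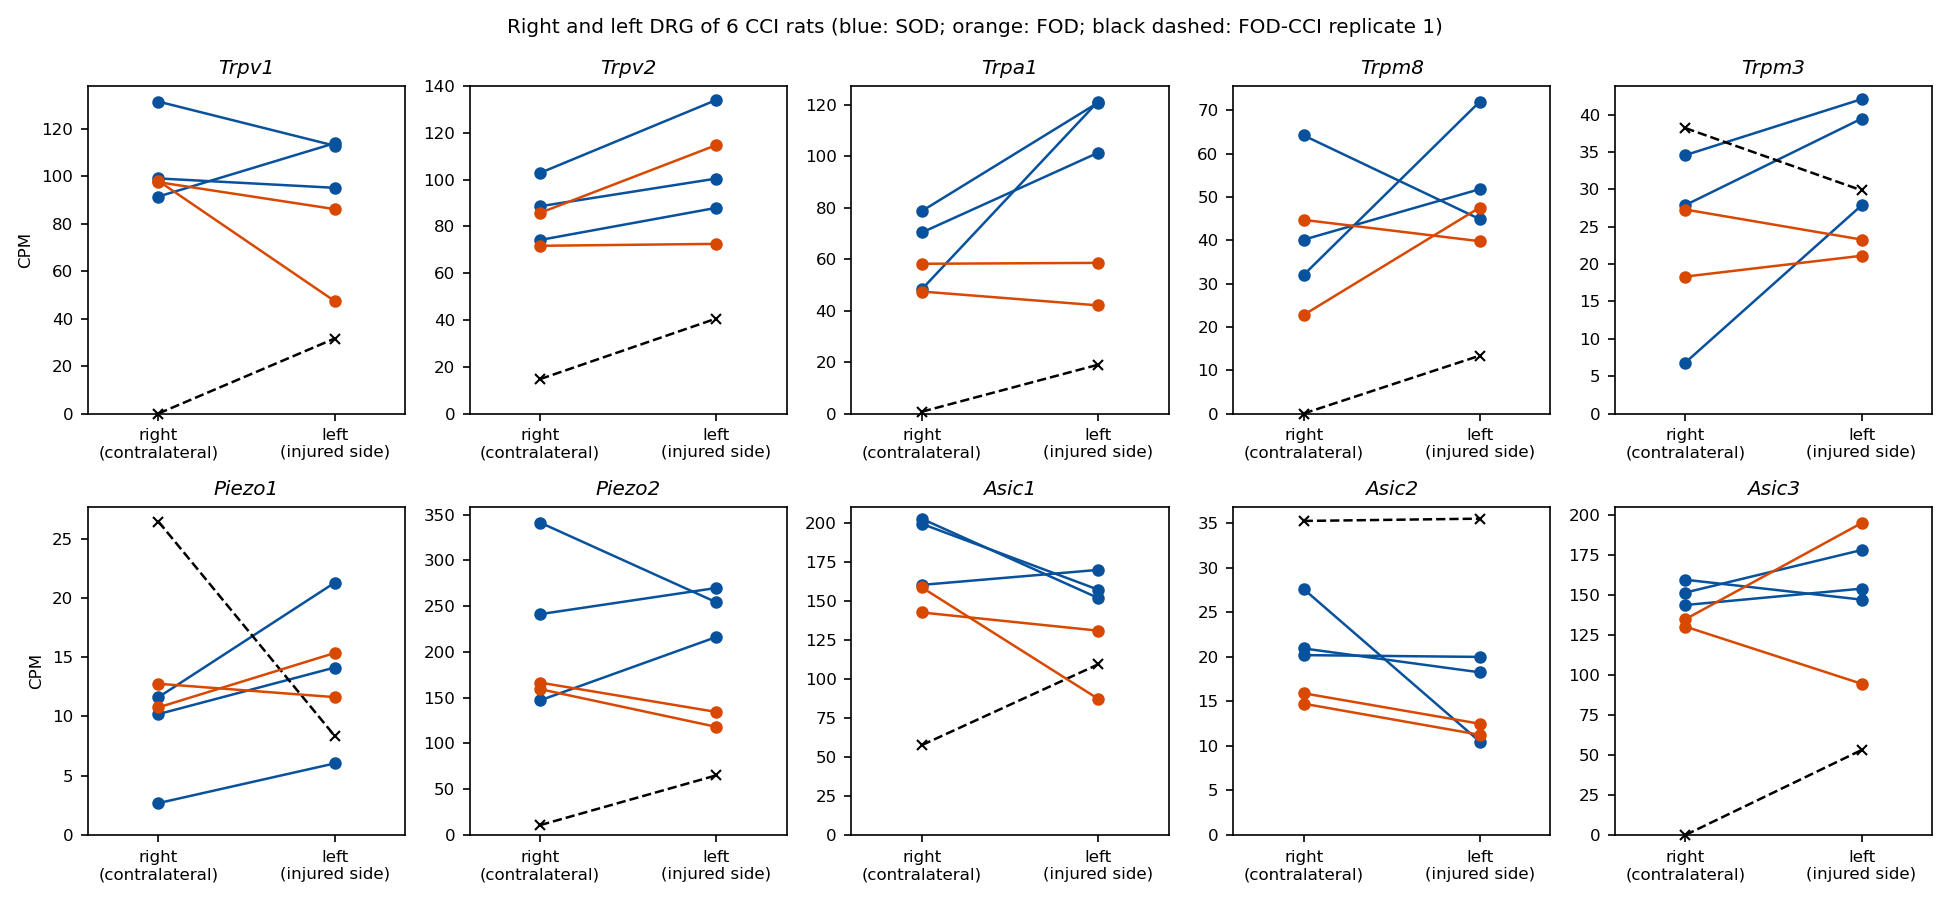
CPM of the 10 channel genes in the right and left DRG of the 6 CCI rats with both sides, each line joining the ganglia of 1 rat (blue SOD, orange FOD, black dashed FOD-CCI replicate 1, both of whose libraries carry spinal cord markers). By CPM, Trpv2 is higher on the left in 6 of 6 rats, though by a ratio of only 1.01 in FOD-CCI rat 2, and Trpa1 in 3 of 3 SOD-CCI rats.

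Averaged over the diets, none of the 10 was called between the sides by edgeR (0.962% of all genes) or DESeq2 (5.43%), and none had an unadjusted edgeR p under 0.05 (11.6%). Without the FOD-CCI replicate 1 pair edgeR still called none (7.64%) and DESeq2 called 1, Asic1, lower on the left (14.1%). The diet difference in the left against right value was 0.30 ± 1.07 for Trpa1 and -0.98 ± 0.46 for Trpm3, both with an edgeR adjusted p of 0.997. No member was called in it by edgeR (0.0%) or DESeq2 (0.412%), and none had an unadjusted p under 0.05 (2.91%). For Trpa1 the sign turned without the FOD-CCI replicate 1 pair, to -0.86 ± 0.30 (edgeR adjusted p = 0.999), and the adjusted p stayed far from the threshold.

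The right ganglia came from the same rats as the left CCI ganglia, so the next comparisons are not independent of those above. Between the right ganglia of the diets, and between these and the sham left ganglia, no channel was called by edgeR (0.0% of all genes in each of the 3 comparisons). DESeq2 called none either (0.414% of all genes for FOD-CCI against SOD-CCI contralateral, 0.371% for SOD-CCI contralateral against SOD-CT and 0.0% for FOD-CCI contralateral against FOD-CT), and none had an unadjusted edgeR p under 0.05 (7.07%, 7.13% and 1.7%). Asic1 measured 57.7, 159 and 143 CPM in FOD-CCI contralateral and 160.3, 203 and 199 CPM in SOD-CCI contralateral. Asic3 measured 0, 130.2 and 135 CPM against 151, 144 and 159 CPM, so that both genes were lower on the fish oil diet without overlap (8.93% of all genes). Per pan-neuronal count neither gene separated (0.571% of all genes). Piezo2 overlapped between these right ganglia, with an edgeR log2 fold change of -1.07 ± 0.78 (adjusted p = 0.753). Without the 4 libraries its value was -0.54 ± 0.37 (edgeR adjusted p = 0.615). Markers of other cells moved with this contrast, as macrophage markers summed to 112 to 286 CPM in FOD-CCI contralateral and 26.0 to 68.2 CPM in SOD-CCI contralateral and red cell markers to 187 to 872 and 24.4 to 63.2 CPM, and their part in the result was not tested. Trpv2 and Asic2 were higher in SOD-CCI contralateral than in SOD-CT without overlap (4.23% of all genes), and no member parted FOD-CCI contralateral from FOD-CT (4.08% higher, 4.74% lower). Per pan-neuronal count no member was higher in SOD-CCI contralateral without overlap (0.378% of all genes).

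Without the 4 libraries these right-side comparisons gave no call among the 10 by edgeR (0.0% of all genes in each) or DESeq2 (2.55%, 0.613% and 0.0472%, in the same order). At an unadjusted edgeR p under 0.05 there were 2 of the 10 for SOD-CCI contralateral against SOD-CT, Trpv2 higher and Piezo1 lower (6.05% of all genes), and none for FOD-CCI against SOD-CCI contralateral (10.9%) or FOD-CCI contralateral against FOD-CT (3.87%). FOD-CCI contralateral then lay under SOD-CCI contralateral without overlap for Asic1, Asic2 and Asic3 (16.1% of all genes). SOD-CCI contralateral lay above SOD-CT for Trpv2 and Asic2 (4.75%) and under it for Piezo1 (7.11%). With 2 libraries left in each group, FOD-CCI contralateral lay above FOD-CT for Trpv1, Trpv2, Asic2 and Asic3 (17.3%).

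The wider families were read from lists of related genes. Of 23 other TRP genes 11 passed the filter in the left libraries, of 2 other acid-sensing channels 1, of 10 other mechanosensitive channels and partners 8, and of 15 regulators of TRP channels, such as receptors for bradykinin and prostaglandin, 13. None was called by edgeR in any of the 13 comparisons with all libraries, where 0.0% to 0.962% of all genes were called. For SOD-CCI against SOD-CT, 1 of these genes, a regulator, had an unadjusted edgeR p under 0.05 (13.8% of all genes). The medians of the log2 fold changes were -0.20, -0.23, 0.29 and 0.23 in that order, beside -0.01 over all genes. For FOD-CCI against SOD-CCI these medians were -0.07, 0.99, 0.05 and -0.64, beside 0.04 over all genes. Of the 13 regulators 3 had an unadjusted edgeR p under 0.05, all lower in FOD-CCI (5.4% of all genes in either direction and 1.53% lower).

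Without the 4 libraries a few of these related genes were called by edgeR, which called 7.77% of all genes for CCI against CT over both diets and 7.64% for the left against the right side over both diets. Ptger4, a prostaglandin E2 receptor, was higher after CCI averaged over the diets, by 1.06 on the log2 scale (adjusted p = 0.0348), and higher on the left than on the right by 1.46 (adjusted p = 0.0279). Bdkrb2, the constitutively expressed bradykinin receptor, was higher on the left in SOD-CCI by 1.59 (adjusted p = 0.0776), where 3.14% of all genes were called. Over both diets it was higher on the left by 1.06 (adjusted p = 0.0908). Over both diets the left side was also higher for Trpm2, a channel gated by ADP-ribose, by 0.88 (adjusted p = 0.0598) and for Stom, a membrane protein that binds acid-sensing channels, by 0.94 (adjusted p = 0.0679). It was lower for Trpm6, a magnesium channel, by -1.48 (adjusted p = 0.0579) and for Tmem150c, a protein linked to slowly adapting mechanical currents, by -0.49 (adjusted p = 0.0659).

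How the 10 genes moved with one another depended on the libraries set apart. Across all 20 libraries Pearson's r of log2 CPM was 0.99 for Trpv1 with Asic3, 0.98 for Trpv1 with Trpm8 and 0.99 for Trpm8 with Asic3. Over the 16 libraries these values were 0.43, 0.35 and 0.49, and the closest pair was Asic1 with Asic2 (0.80), before Asic1 with Piezo2 and Trpv2 with Asic3 (0.76 each). The points share diets, rats and neuronal content, and no test was applied.

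The genes most like each channel also changed. In all 20 libraries those nearest to Trpv1 were Tusc5, Scn10a and Slc17a7, with r from 0.988 to 0.992, Scn10a being a sodium channel of nociceptors. In the 16 libraries Rgs4 (0.917) and Mrgprx3 (0.914) led for Trpv1. For Trpa1 the nearest gene was Fam189b (0.964) in 20 libraries and Card14 (0.826) in 16. For Piezo2 they were Pirt (0.971), which encodes a regulator of Trpv1 and Trpm8, and Prkce (0.952), a protein kinase C. Of the 30 places, 3 for each channel, 3 were held by the same gene for the same channel in both sets.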

How the data were processed

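Poly-A RNA of 20 DRG libraries was sequenced by the authors, who left out 1 SOD-CCI and 1 FOD-CT sample before library preparation for low RNA. Per the labels and methods, reads were trimmed with fastp, aligned with HISAT2 and assigned to genes with featureCounts 1.5.0-p3. The deposited counts are whole fragments per gene, neither pooled nor scaled. From these and the gene lengths the authors computed FPKM, a second deposited table. Strand use, multiple alignments and the genome build are not given in the sources used here, so genes that overlap another gene remain uncertain. CPM, counts per 1000000 counts of a library, were computed here. All 20 columns of each table were assigned to samples by title (0 left over). The labels name separate rats for the replicates of a group, and the 24 replicate pairs differed beyond sampling noise (chi-square per gene of at least 25.6).

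The main test was edgeR 4.0.16 (quasi-likelihood, TMM; R 4.3.3) on counts, with Benjamini-Hochberg adjustment over all genes tested, in a fit of 14 left libraries (14484 genes), a fit of 12 libraries paired by rat (14549 genes) and a fit of 13 libraries with 1 per rat (14007 genes), which gave 13 comparisons. Genes needed 10 counts in at least 90% of libraries, and a gene was called at a fold of 1.2 or more with an adjusted p of 0.1 or less. A prior count of 1 was used for log2 CPM. Left and right ganglia of a rat are paired by the labels, and their deviations from the group means correlated at 0.114 to 0.430 over 6 rats. Groups of different rats also share replicate numbers. The same-numbered FOD-CT and FOD-CCI libraries correlated in all 3 pairs, at 0.192 to 0.429, and FOD-CT and FOD-CCI contralateral libraries at 0.185 to 0.569, and replicate 1 of each carries spinal cord markers. The labels name no litter, day or batch behind these numbers. SOD-CT and SOD-CCI libraries gave -0.0785 to 0.0761. The replicate number entered an alternative as a block, which changed no call of a channel gene. Other alternatives were DESeq2 1.42.0 (Wald test), its size factors in edgeR, scaling to pan-neuronal markers, no filter, fits of the compared groups alone, leaving out each replicate, and leaving out the 4 libraries with markers of other tissues. The 2 alternatives that combine that omission with neuronal scaling or DESeq2 were chosen after seeing the data. The scripts were tested on simulated data.

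The 10 genes, the related lists and the marker lists were chosen with earlier results of these data known. All 10 genes are named, as are related genes that were called, and for each channel the 3 genes with the highest Pearson r of log2 CPM were taken. Promoter windows are from RefSeq (GRCr8), matched by symbol. Coordinates come from that table and not from the files. A count of 0 is given with a limit of 3 counts, which covers counting error only.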

Additional observations from a re-analysis of the deposited data

How the results depend on the processing

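Of 354 recomputed fold changes under settings other than leaving out 1 replicate, 327 kept their direction and their side of the threshold, 12 passed the threshold newly and 15 turned their direction. With 1 replicate left out, 484 of 494 kept both, 9 turned and 1 passed newly. The number of channel genes called rose from 0 only without the 4 libraries. It was then 1 for CCI against CT over both diets and 1 for SOD-CCI left against contralateral by edgeR. With neuronal scaling added it was 1 for SOD-CCI against SOD-CT (Trpv2, adjusted p = 0.0573), 1 for FOD-CCI against FOD-CT (Trpv2, adjusted p = 0.0667) and 2 for CCI against CT over both diets (Trpv2 and Trpa1), by edgeR. With DESeq2 it was 2 for SOD-CCI against SOD-CT, 2 for FOD-CCI against SOD-CCI, 1 for CCI against CT over both diets (Trpv2), 1 for SOD-CCI left against contralateral (Trpa1) and 1 for the left against the right side over both diets (Asic1, -0.40, adjusted p = 0.0938). Leaving out single replicates gave 0 to 1 called genes for SOD-CCI left against contralateral, with 1 without FOD-CCI replicate 1, and 0 in each other comparison. In the fit paired by rat, leaving out FOD-CCI replicate 1 and leaving out the 4 libraries are the same fit, so this call of Trpa1 is the one already given. Over all genes, edgeR called 0, 0, 0 and 0 with all libraries and 200, 526, 1180 and 0 without the 4, for SOD-CCI against SOD-CT, FOD-CCI against FOD-CT, CCI against CT over both diets and FOD-CCI against SOD-CCI, where DESeq2 called 594, 21, 476 and 2 with all libraries. Between the sides it called 19 in SOD-CCI, 2 in FOD-CCI and 140 over both diets, against 471, 137 and 1146.

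Among the 41 fold changes followed through the settings, directions turned as follows. For SOD-CCI against SOD-CT, Piezo2 came to -0.0430 without the 4 libraries and -0.0557 with DESeq2 on them, and ranged from -0.0608 to 0.46 without single replicates, as Piezo1 did from -0.73 to 0.0426. For FOD-CCI against SOD-CCI, Asic2 came to -0.65 without the 4 libraries, -0.56 with neuronal scaling added and -0.65 with DESeq2, and ranged from -0.67 to 0.34 without single replicates, as Piezo1 did from -0.16 to 0.62. Trpa1 in FOD-CCI against FOD-CT ranged from -0.16 to 0.46. For FOD-CCI left against contralateral, Trpv2 came to -0.0208 with neuronal scaling, and Trpa1 to -0.0875 without the 4 libraries and -0.0911 with DESeq2 on them, ranging from -0.0875 to 2.07 without single replicates. The diet difference between the sides for Trpa1 came to -0.20 with neuronal scaling, -0.86 without the 4 libraries, -0.89 with neuronal scaling added and -0.84 with DESeq2, and ranged from -0.86 to 1.30. Fold changes not followed in this way also turned without the 4 libraries. Among them were Trpv1 and Piezo2 for FOD-CCI left against contralateral, above 0 with all libraries and then -0.62 and -0.37, and Trpv1 for the left against the right side over both diets, then -0.33. The cause was not tested.

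With the replicate number as a block in the left fit, no channel gene was called in any comparison (0 calls), Asic2 came to -0.0521 for SOD-CCI against SOD-CT and Piezo1 to -0.0480 for FOD-CCI against SOD-CCI. Without the block by rat, the diet difference between the sides of Trpa1 was -0.59, and no call changed.

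Groups of 3 or 4 libraries limit the precision, with fitted standard errors of 0.31 to 0.73 for SOD-CCI against SOD-CT, and Piezo1, at 2.69 to 26.4 CPM, had the lowest level per length.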
